A study of Mus musculus with 18 samples.

Results

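Collagens were followed in palate tissue of mouse embryos at embryonic day 15.5. The genes described here encode the collagen chains other than Col2a1, Col9a1, Col10a1 and Col11a2, which belong to cartilage, and Col17a1, which belongs to hemidesmosomes. They were chosen by symbol, as the probe sets of the array whose annotation gives a single symbol of the form of a collagen chain, and each gene was represented by its probe set with the highest mean over the 18 arrays. This gave 37 genes, out of 42 collagen genes and 18193 genes on the array.

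Total RNA of whole palate tissue was hybridised to 1-colour Affymetrix arrays in 3 groups of 6 samples each. Control anterior palate and control posterior palate came from Tgfbr2 fl/fl embryos, and mutant posterior palate came from Tgfbr2 fl/fl embryos that also carried K14-Cre, all labelled C57BL/6J and of undetermined gender. Every animal, controls included, thus carried the floxed allele of Tgfbr2, the type II receptor for TGF-beta. Cre was driven by the promoter of keratin 14, which is active in surface epithelium, so the mesenchyme, the muscle and the vessels in the tissue were not targeted. Control and mutant embryos came from different litters, per the series' design text, which also states 5 samples for each group where 6 are labelled. Sources used here do not tell whether a sample held a single embryo or several, so every p-value rests on the scatter among these samples, which may in part be technical. The design asks how loss of this epithelial signal affects the palate around it, and how posterior palate, where muscle forms, differs from anterior palate.

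Collagens are trimers of chains that share repeats of glycine followed by any pair of residues, and each gene encodes a single chain. Fibrillar collagens such as types I, III and V form the cross-banded fibrils of connective tissue, type IV forms the sheets of basement membranes, type VI forms beaded filaments around cells, and the fibril-associated collagens (FACITs) sit on the surface of other fibrils. Membrane collagens are anchored in the cell surface, and multiplexins lie in and next to basement membranes. In the palate, mesenchymal cells make most of the fibrillar collagen, and TGF-beta is known as an inducer of collagen genes in fibroblasts.

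Promoter sequences of RefSeq (GRCm38.p6) were found for 29 of the 37 genes, and for 10 of the 13 that are described below as higher in mutants. Shown here are the 150 bases before the start of 5 of these 10, taken from types V and VI, in which several chains rose, and from type I, whose fibrils contain type V. The sequences are given 5′ to 3′ on the gene's own strand, and capitals mark exact matches, on either strand, to 4 motifs. These were the CCAAT box by that name, the GC box in the letters GGGCGG, the TATA box in the letters TATAAA, and the core of a SMAD half-site in the letters CAGAC.
Col1a2, chr6:4505468-4505617, plus strand: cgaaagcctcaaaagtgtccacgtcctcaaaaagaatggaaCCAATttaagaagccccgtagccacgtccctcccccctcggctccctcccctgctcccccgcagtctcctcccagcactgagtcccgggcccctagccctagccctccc
Col5a1, chr2:27886275-27886424, plus strand: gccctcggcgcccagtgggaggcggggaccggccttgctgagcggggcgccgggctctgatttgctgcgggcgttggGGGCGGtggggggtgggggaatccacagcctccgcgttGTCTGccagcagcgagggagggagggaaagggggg
Col5a3, chr9:20815068-20815217, minus strand: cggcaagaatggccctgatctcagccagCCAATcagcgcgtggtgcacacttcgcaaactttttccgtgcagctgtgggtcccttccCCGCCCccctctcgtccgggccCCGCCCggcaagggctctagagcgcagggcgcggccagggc
Col6a1, chr10:76726045-76726194, minus strand: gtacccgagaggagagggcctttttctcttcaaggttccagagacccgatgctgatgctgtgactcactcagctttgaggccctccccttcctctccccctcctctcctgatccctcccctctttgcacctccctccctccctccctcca
Col6a3, chr1:90843972-90844121, minus strand: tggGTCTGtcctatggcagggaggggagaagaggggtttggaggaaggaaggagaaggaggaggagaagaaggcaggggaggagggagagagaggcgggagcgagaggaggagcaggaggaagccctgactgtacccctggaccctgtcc

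Col1a2 and Col5a3 carry CCAAT in these stretches, Col5a1 and Col5a3 carry GGGCGG, and Col5a1 and Col6a3 carry CAGAC. None of the 4 motifs lies in the 150 bases of Col6a1. Within the 250 bases before the start, CAGAC was present in 14 of the 29 collagen promoters and in 6 of the 10 whose genes were higher in mutants, beside 42.2% of 32851 promoters on the same window. GGGCGG was present in 19 of 29 and 5 of 10 (32.7% of all promoters), CCAAT in 11 of 29 and 3 of 10 (33.8%), and TATAAA in 2 of 29 and 1 of 10 (12.4%). CAGAC does not overlap the other motifs by its letters. These are matches of letters and not measured binding.

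Hybridisation spikes split the arrays of each genotype into those numbered 1 to 3 and those numbered 4 to 6. They read 10.53 to 10.63 in control arrays 1 to 3 and 10.88 to 11.13 in control arrays 4 to 6, against 11.38 to 11.91 and 10.67 to 10.78 in the mutants. Labelling spikes were at 8.75 to 10.48 in controls and 6.79 to 8.28 in mutants, so no control array shared the mutants' range. They split the controls but not the mutants by number. In the genotype comparison, the mutation thus cannot be told apart from what shifted these spikes, or from litter. Mutant arrays 1 to 3 also had higher medians, at 5.87 to 5.90, than the other 15 arrays, at 5.73 to 5.79. The 3′ minus 5′ difference of Gapdh, a sign of RNA quality, was 0.30, 0.21 and 0.07 in mutant arrays 1, 2 and 3, -0.08 to -0.04 in mutant arrays 4 to 6 and -0.04 to 0.35 in controls. The standard deviation of a gene over arrays had a median of 0.13 in control posterior and 0.23 in mutant palate. The receptor gene itself, Tgfbr2, read 10.25 to 10.73 in control posterior and 10.63 to 11.39 in mutant tissue, which is a rise of 0.55 (adjusted p = 0.00879, limma). In whole tissue, and with probes not placed against the deleted exons here, this does not check the labels. Epithelial and mesenchymal markers averaged 9.31 to 12.20 and 9.06 to 10.36 per array over the 3 groups, and the other lists are given with the results they touch.

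Between genotypes, 13 of the 37 collagen genes rose in mutant posterior palate and none fell, at an adjusted p under 0.05 (limma, Benjamini-Hochberg adjustment over all 18193 genes). Over all genes tested, 13.5% were called, 7.73% higher and 5.73% lower. With arrays centred on their medians that split was 4.89% and 7.82%, and 10 collagens rose and 1 fell. The collagens called were the type V chains Col5a1, Col5a2 and Col5a3, Col1a2, Col4a2, the type VI chains Col6a1, Col6a2 and Col6a3, the FACITs Col14a1, Col19a1 and Col22a1, Col13a1 and Col15a1. Their log2 differences ran from 0.46 to 1.59. The median over the 37 genes was 0.47, beside 0.04 over all genes, and 30 of 37 differences were positive, beside 58.3% of all genes. Without adjustment, 20 of the 37 had a p under 0.05, beside 28.0% of all genes.

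**Figure D1:**
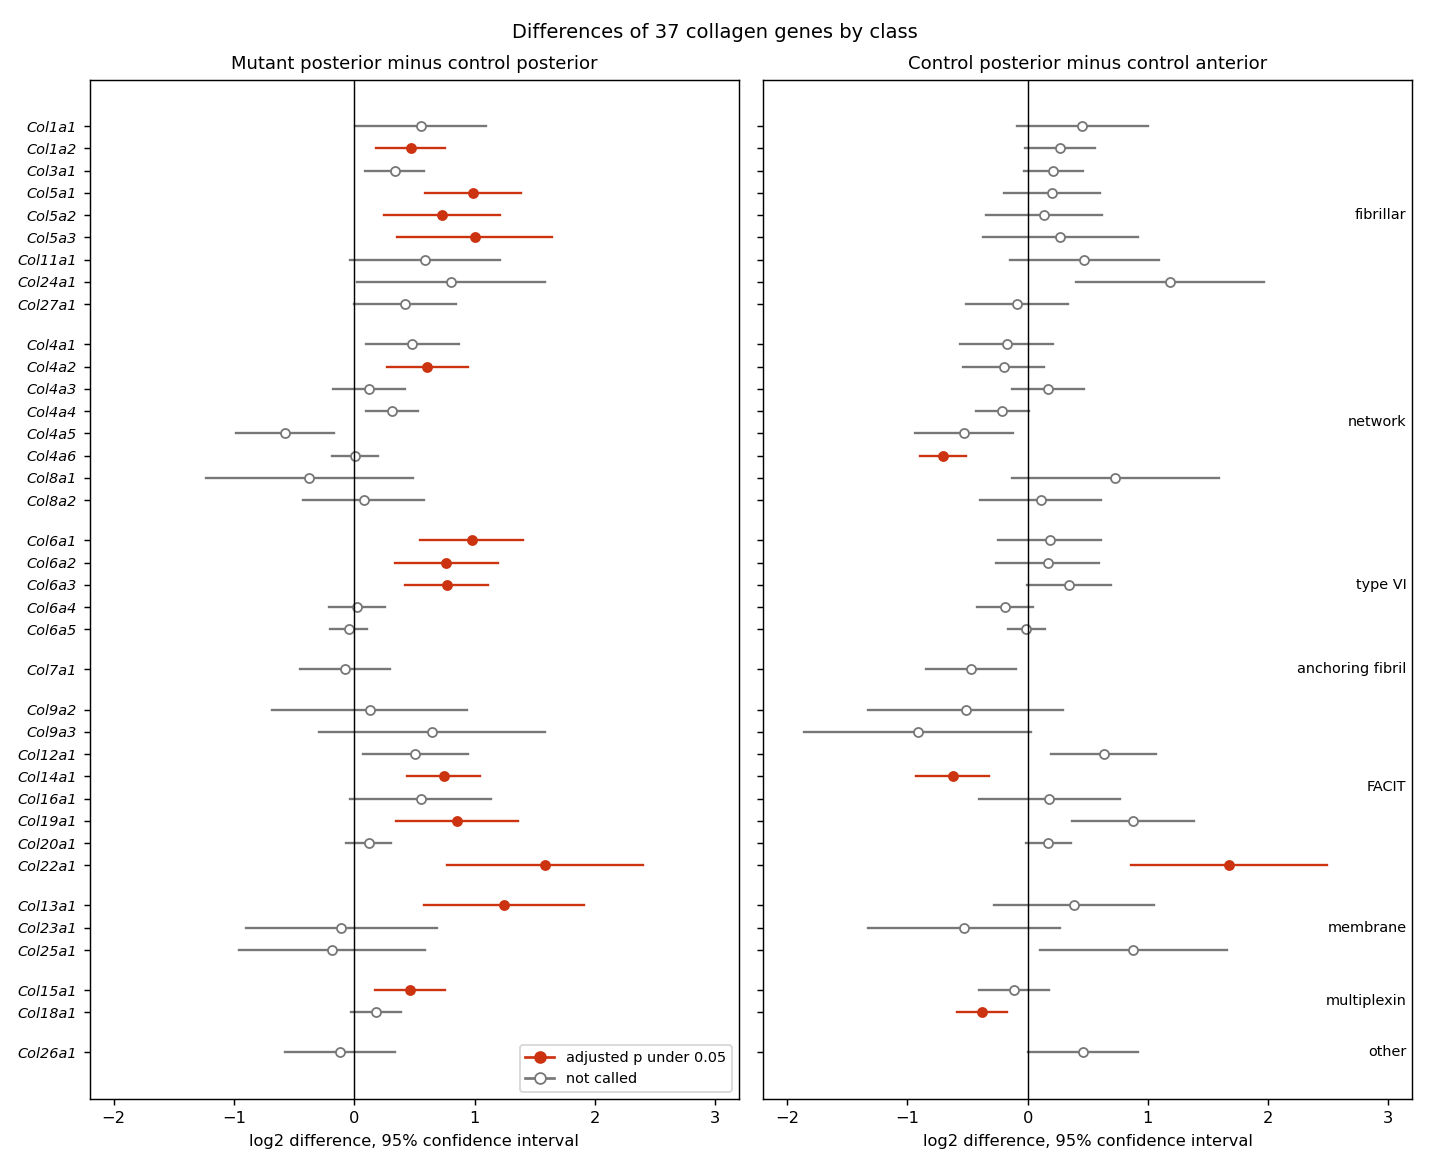
Log2 difference and 95% confidence interval (limma) of each of the 37 collagen genes, grouped by class, for mutant minus control posterior palate on the left and control posterior minus control anterior palate on the right, with called genes in red. All 9 fibrillar genes lie above 0 on the left, and the 4 called genes on the right are Col22a1, above 0, and Col14a1, Col18a1 and Col4a6, below 0.

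Fibrillar collagens were positive in all 9 cases, and 4 of 9 rose. Col5a1 encodes a chain of type V collagen, which is built into type I fibrils and limits their width. It read 10.73, 11.07 and 11.27 (lowest, median and highest of 6 arrays, log2) in control posterior palate and 11.16, 12.14 and 12.52 in mutant posterior palate. Mutant array 2 was the lowest, and the other 5 lay above every control. The difference was 0.99 (SE 0.19, adjusted p = 0.0028, limma), or 1.98-fold. Col5a2, the partner chain of Col5a1 in the same trimer, read 12.06, 12.39 and 12.58 in controls and 12.17, 13.24 and 13.67 in mutants, again with array 2 within the control range and 5 arrays above it. It rose by 0.73 (SE 0.23, adjusted p = 0.0422). Col5a3, the third type V chain, read 5.53, 5.62 and 5.77 in controls and 5.86, 6.35 and 8.45 in mutants, with no overlap between the groups. Its rise of 1.00 (SE 0.31, adjusted p = 0.0386) leaned on mutant array 1 at 8.45, and without that array the difference was 0.64 (adjusted p = 0.0122).

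Col1a2, the minor chain of type I collagen, read 13.75, 14.12 and 14.19 in control and 14.06, 14.59 and 14.74 in mutant posterior palate. Only mutant array 2 lay among the controls. The rise was 0.47 (SE 0.14, 1.38-fold, adjusted p = 0.0324). Col1a1, the major chain of the same trimer, read 11.20, 11.59 and 11.89 in controls and 11.06, 12.44 and 12.95 in mutants, so that 4 mutant arrays were above all controls and array 2 was below all of them. Its difference of 0.55 (SE 0.26, 95% interval 0.01 to 1.10) was not called (adjusted p = 0.171). Col3a1, the chain of type III collagen, which mixes with type I in soft tissue, read 13.95, 14.07 and 14.20 in controls and 14.08, 14.45 and 14.67 in mutants. With 5 of 6 mutant arrays above every control, it differed by 0.34 (SE 0.12, adjusted p = 0.0634) and was not called. The other fibrillar genes not called were Col11a1 (0.59, adjusted p = 0.205), Col24a1 (0.81, 0.164) and Col27a1 (0.42, 0.184). Col24a1 is known from bone and Col11a1 and Col27a1 from cartilage, and these chains are not limited to those tissues.

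Type VI collagen was called in its 3 classic chains. These assemble together into the filaments found around muscle fibres and mesenchymal cells, and all rose. Col6a1 read 10.12, 10.42 and 10.78 in control and 10.55, 11.48 and 11.87 in mutant posterior palate, with mutant array 2 inside the control range. The rise was 0.98 (SE 0.20, 1.97-fold, adjusted p = 0.0047). Col6a2 read 11.25, 11.49 and 11.88 in controls and 11.62, 12.39 and 12.78 in mutants. Col6a3 read 11.60, 11.91 and 12.17 in controls and 12.13, 12.75 and 13.07 in mutants. In both genes 5 mutant arrays exceeded every control and array 2 did not, and both rose by 0.77 (SE 0.20 and 0.16, adjusted p = 0.0193 and 0.00569). Col6a4 and Col6a5, which encode alternative chains in place of Col6a3, lay in the lower part of the scale at 5.03 to 5.64 and 2.99 to 3.23 in controls. The median gene was at 7.38, so both may be too low for a difference to show. Col5a3 and Col19a1, which were called, lay near Col6a4 in control posterior palate, at 5.53 to 5.77 and 5.47 to 5.96. The called genes Col13a1 and Col15a1 also averaged below the median gene. Their differences were 0.03 and -0.05, neither of them called, and that of Col6a4 was -0.03 with arrays centred on their medians.

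**Figure D2:**
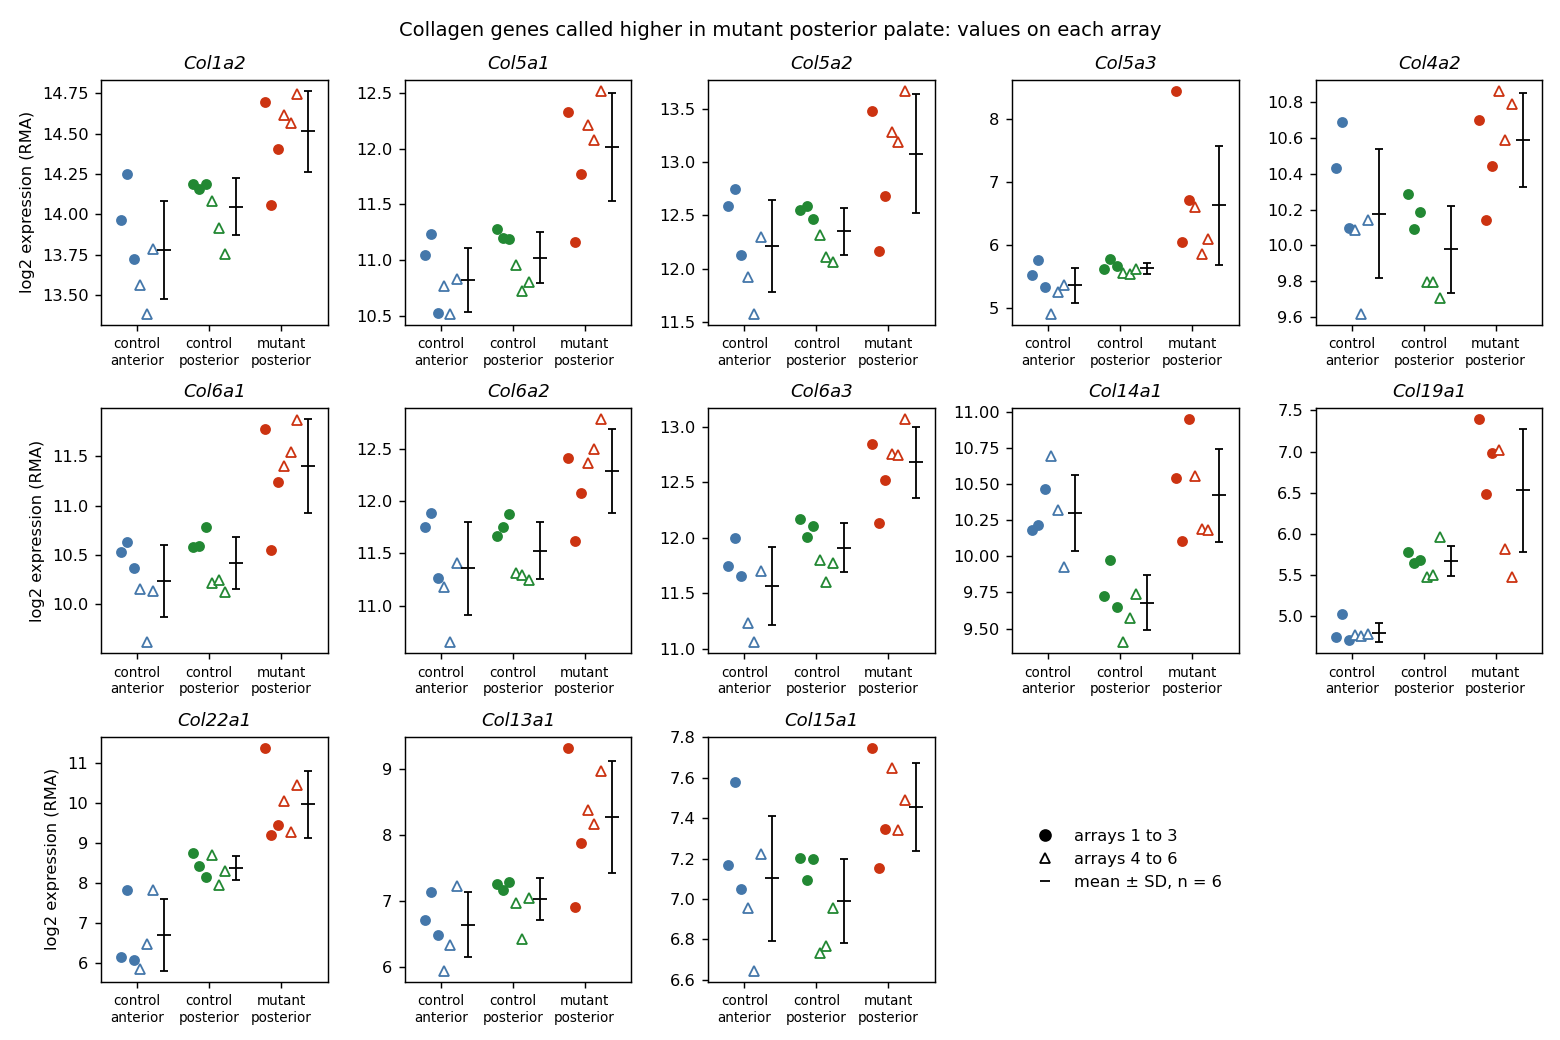
Log2 expression on each array of the 13 collagen genes called higher in mutant posterior palate, in the 3 groups, with filled circles for arrays 1 to 3, open triangles for arrays 4 to 6, and bars for the mean ± SD (n = 6). Mutant array 2 is the lowest mutant array in 11 of the 13 genes, and Col5a3, Col14a1 and Col22a1 show no overlap between mutant and control posterior arrays.

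Of the network-forming collagens, 1 of 8 rose. Col4a1 and Col4a2 encode the chains of the commonest type IV trimer, found in basement membranes of epithelium, vessels and muscle, and their RefSeq starts lie 21 bases apart on opposite strands. Col4a2 read 9.71, 9.95 and 10.29 in control and 10.14, 10.64 and 10.86 in mutant posterior palate. It rose by 0.61 (SE 0.16, 1.52-fold, adjusted p = 0.0179), and 5 of 6 mutant arrays were above all controls. Col4a1 read 10.86, 11.14 and 11.49 in controls and 11.07, 11.73 and 12.02 in mutants, with 4 mutant arrays above all controls. Its difference of 0.48 (SE 0.18) was not called (adjusted p = 0.0903).

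Col4a5 encodes a chain of epithelial and kidney basement membranes and gave the lowest value of the 37. It read 9.31, 9.69 and 10.09 in control and 8.26, 9.26 and 9.62 in mutant posterior palate, where all 6 arrays were below the control mean and 3 were below every control. The difference was -0.58 (SE 0.19, adjusted p = 0.0563), short of the call. Its neighbour Col4a6, whose start lies 1343 bases away on the other strand, differed by 0.01 (95% interval -0.19 to 0.20), or by -0.05 with arrays centred on their medians. Col4a5 was the collagen that fell under that centring. Col4a3 and Col4a4, chains known from kidney, and Col8a2, a chain of type VIII collagen, differed by 0.12, 0.31 and 0.08 without a call.

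FACITs were positive in all 8 cases, and 3 of 8 rose. Col22a1 encodes the collagen of the junction between muscle and tendon and gave the highest value of the 37. It read 7.97, 8.37 and 8.75 in control and 9.21, 9.76 and 11.39 in mutant posterior palate, with no overlap between the groups. The rise was 1.59 (SE 0.39, 3.00-fold, adjusted p = 0.0126). Col14a1, which binds the surface of type I fibrils and the proteoglycan decorin, read 9.41, 9.69 and 9.97 in controls and 10.11, 10.37 and 10.95 in mutants. These groups did not overlap either, and the rise was 0.74 (SE 0.14, 1.67-fold, adjusted p = 0.00308). Together with Col5a3, these were the 3 collagens of 37 without overlap, beside 6.55% of all genes. Col19a1, a basement membrane zone collagen known from embryonic muscle, read 5.47, 5.66 and 5.96 in controls and 5.48, 6.73 and 7.39 in mutants. Here mutant arrays 5 and 6 lay within the control range and the other 4 above it, with a rise of 0.86 (SE 0.24, adjusted p = 0.0258).

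Col12a1, the relative of Col14a1 found in dense connective tissue and tendon, read 10.36, 10.65 and 11.07 in control and 10.61, 11.16 and 11.78 in mutant posterior palate. With 4 mutant arrays above every control, its difference of 0.51 (SE 0.21) was not called (adjusted p = 0.114). Col16a1, Col9a2, Col9a3 and Col20a1 differed by 0.55, 0.13, 0.65 and 0.12 and were not called. Col9a2 and Col9a3 encode chains that join the Col9a1 chain in cartilage. Col9a3 was at 10.02 in mutant array 3 and 9.97 in control anterior array 2, the arrays in which the mean of 7 cartilage genes was also highest of its group (9.71 and 9.01). The part of cartilage in this value was not tested.

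Among the membrane collagens, Col13a1, known from cell adhesion sites and the neuromuscular junction, read 6.43, 7.11 and 7.29 in control and 6.92, 8.27 and 9.32 in mutant posterior palate. Mutant array 2 was within the control range, and the rise was 1.25 (SE 0.32, 2.37-fold, adjusted p = 0.0155). Col23a1 and Col25a1, of the same class, differed by -0.11 and -0.18 and are taken up again with the array sets. Of the multiplexins, Col15a1, which ties basement membranes to the fibrils below them, read 6.73, 7.02 and 7.20 in controls and 7.15, 7.42 and 7.75 in mutants, and rose by 0.46 (SE 0.14, 1.38-fold, adjusted p = 0.0334). Col18a1, whose end is cleaved to give endostatin, read 9.19, 9.44 and 9.53 in controls and 9.36, 9.52 and 9.93 in mutants. The difference of 0.18 (SE 0.10) was not called (adjusted p = 0.254). Col7a1, the anchoring fibril of the epithelial border, and Col26a1 differed by -0.08 and -0.12 without a call.

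**Figure D3:**
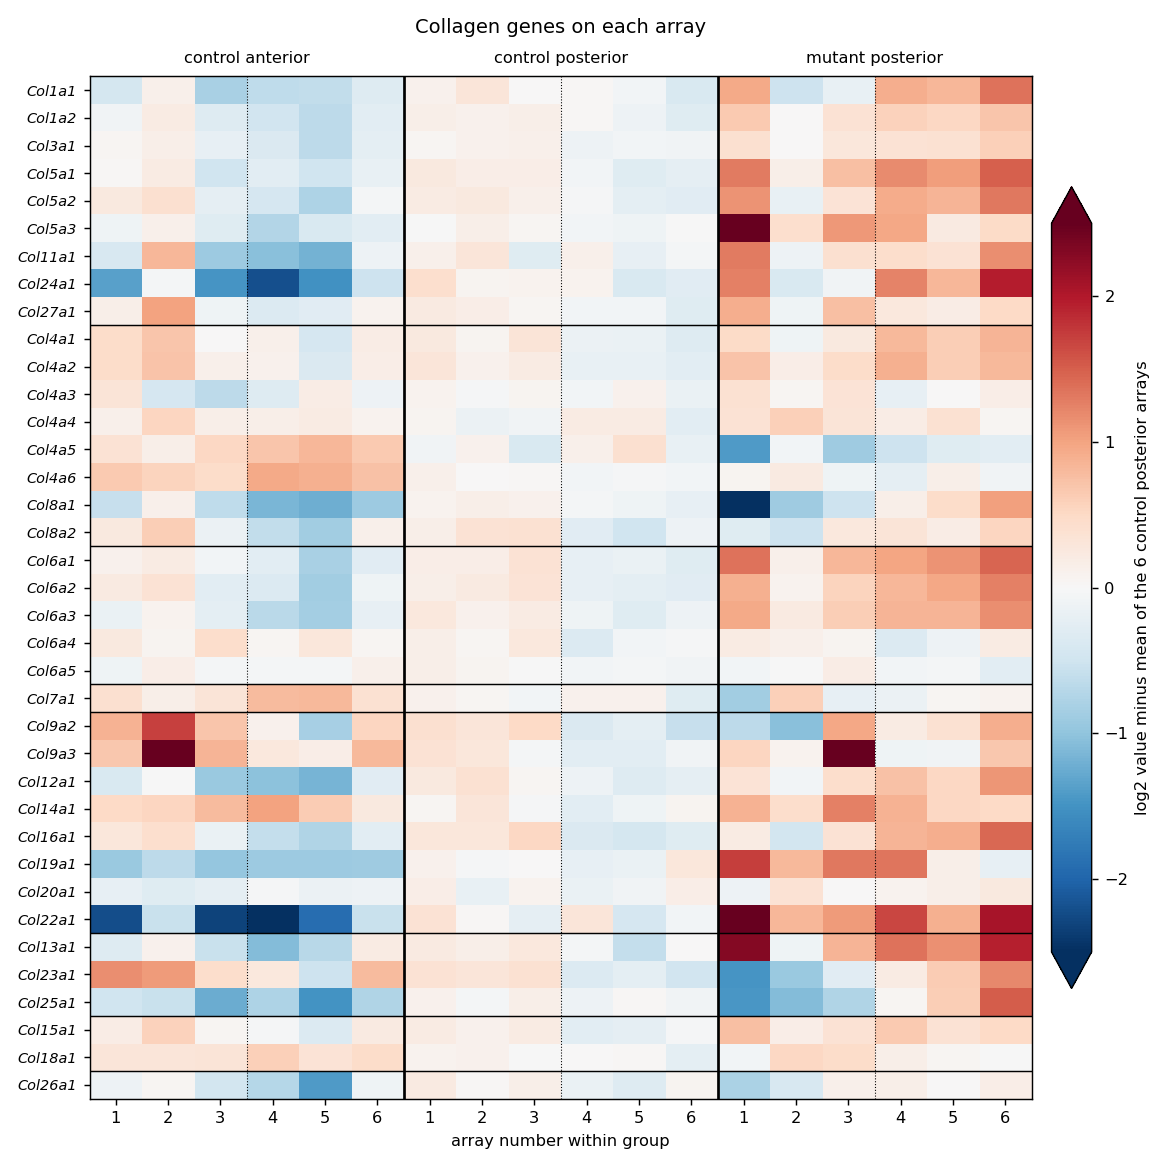
Each of the 37 collagen genes (rows, grouped by class) on each of the 18 arrays (columns), as the log2 value minus the mean of the 6 control posterior arrays, red for higher and blue for lower, with dotted lines between arrays 1 to 3 and 4 to 6. The rows of Col5a1, Col6a1, Col6a2 and Col6a3 are paler in mutant array 2 than in the other mutant arrays, and those of Col8a1, Col23a1 and Col25a1 are blue in mutant arrays 1 to 3 and not in arrays 4 to 6.

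The 2 sets of arrays moved with these values in opposite directions in the 2 genotypes. In control posterior palate the mean of arrays 4 to 6 was below that of arrays 1 to 3 for 35 of 37 collagens, with all 3 arrays lower for 22 of them, and the median shift was -0.28. In mutant palate it was above for 25 of 37, with a median shift of 0.32. These shifts were not counted over all genes, so they are not shown to be particular to collagens. Col6a1, for example, averaged 10.65 in control posterior arrays 1 to 3 and 10.19 in arrays 4 to 6, and 11.19 and 11.61 in the mutants. Set against control arrays 1 to 3 only, none of the 37 was called, while 26 differences were positive, beside 53.0% of all genes, with a median of 0.29, and 11 had an unadjusted p under 0.05 (limma), beside 12.8% of all genes. In that fit 0.742% of all genes were called. With control arrays 4 to 6 only, 8 rose, all of them among the 13, beside 3.53% of all genes (5.54% in either direction). With the sets as a random block (correlation 0.26), Col5a1, Col6a1 and Col6a3 remained called (adjusted p = 0.0323, 0.0369 and 0.0390), beside 1.52% of all genes.

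Restricting the mutants changed which collagens were called. With mutant arrays 4 to 6 only, 18 rose, 12 of the 13 among them, and Col1a1 (1.03, adjusted p = 0.00202), Col3a1 (0.44, 0.0331), Col4a1 (0.76, 0.0148), Col12a1, Col16a1 and Col24a1 were added. With mutant arrays 1 to 3 only, 8 rose, among them 7 of the 13, and 3 fell. The share of all genes called was 7.82% higher with arrays 4 to 6, and 17.9% higher and 9.55% lower with arrays 1 to 3. Those that fell were Col8a1, a network collagen of vessels and cornea, Col25a1, a membrane collagen needed for muscle innervation, and Col4a5, at -1.29, -1.10 and -0.79 (adjusted p = 0.0127, 0.000962 and 0.0238).

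Col8a1 was at 8.79 to 10.76 in mutant arrays 1 to 3 and at 11.41 to 12.30 in arrays 4 to 6, and control posterior arrays were at 11.07 to 11.42, above the first range and at the lower edge of the second. Col25a1 was at 8.14 to 8.84 and 9.65 to 11.11 in the same mutant arrays, with controls at 9.46 to 9.73, again above all of arrays 1 to 3. Col23a1 was at 6.73 to 7.93 and 8.40 to 9.42, with controls at 7.74 to 8.59, which overlapped both. In all 3 genes the mutants of arrays 1 to 3 were below those of arrays 4 to 6 without overlap. Averaged over all 6 mutants, these genes showed differences of -0.37, -0.18 and -0.11. The part of the array sets in these values was not tested beyond the fits given.

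**Figure D4:**
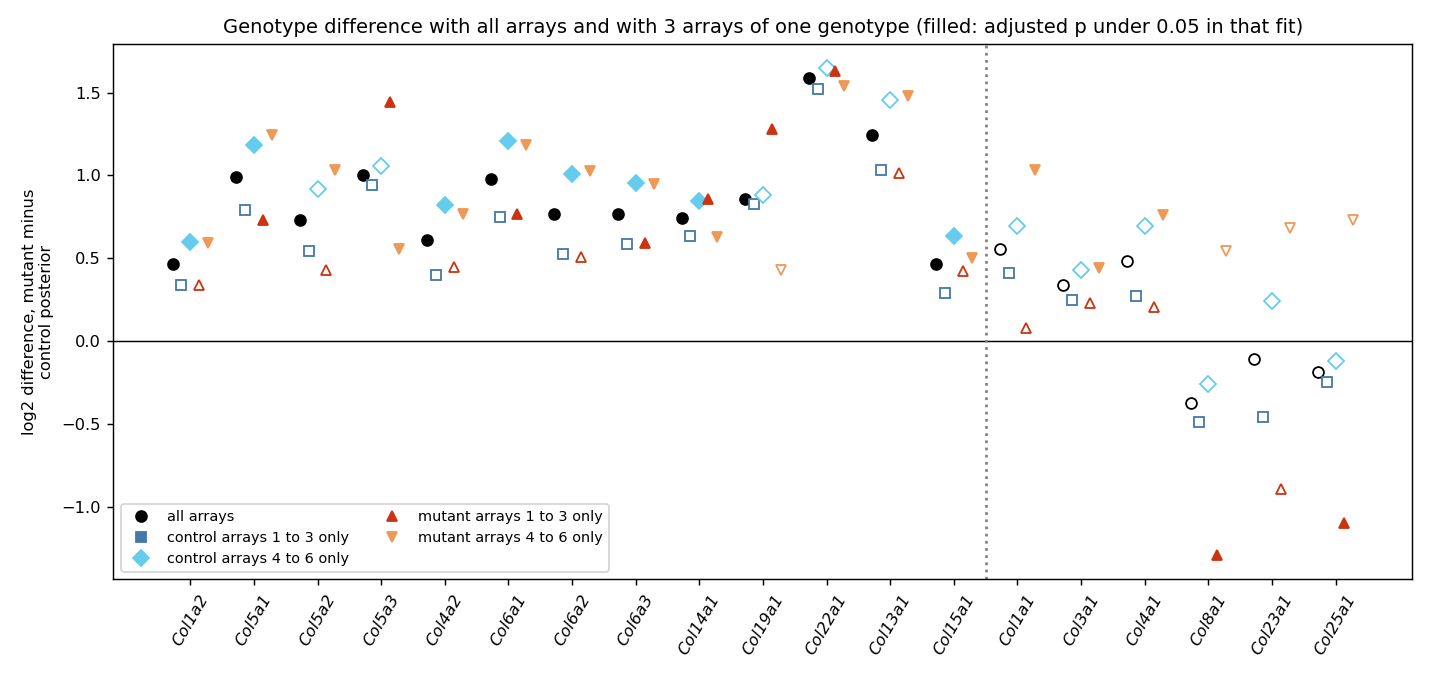
Log2 difference between mutant and control posterior palate for the 13 called genes (left of the dotted line) and 6 others, from all arrays and from fits that keep 3 arrays of 1 genotype, filled where the adjusted p is under 0.05. All points of the 13 genes lie above 0, none of the squares (control arrays 1 to 3 only) is filled, and Col8a1, Col23a1 and Col25a1 change sign between the 2 mutant sets.

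Leaving out 1 array at a time, between 8 and 17 collagens were called higher. Col4a2, Col5a1, Col6a1, Col6a3, Col13a1, Col14a1 and Col22a1 stayed called in all 18 such fits. Col6a2 was lost in 1 fit, without control posterior array 5 (adjusted p = 0.0502). Col15a1 and Col19a1 were each lost in 5 fits (highest adjusted p = 0.0834 and 0.0595), Col1a2 in 6 (0.0790), Col5a3 in 8 (0.0773) and Col5a2 in 12 (0.0941). The arrays behind the losses of Col1a2, Col15a1 and Col19a1 were control posterior 4, 5 or 6 and mutant 1, 3, 4 or 6. For Col5a3 they were any control posterior array and mutant arrays 3 and 4. Col5a2 was lost without any control posterior array, control anterior arrays 3 and 6, and mutant arrays 1, 4, 5 and 6. Mutant array 2, the lowest mutant in 11 of the 13 called genes, had the highest actin 3′ minus 5′ difference of the mutants, at 0.61, beside 0.32 to 0.65 in controls, and the part of RNA quality in its values was not tested. Without mutant array 2, 17 rose and Col4a5 fell, beside 8.12% and 6.66% of all genes. Without mutant array 1, in which the mean of 9 epithelial marker genes was 9.31 beside 11.19 to 11.91 in the other mutants, 9 rose, beside 6.67% of all genes.

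Other probe sets of the same genes bear on the type I, III and IV values. Several probe sets existed for 26 of the 37 genes, and the brightest and the next brightest had the same sign of difference in 23 of them. The next brightest probe set of Col1a1 gave 1.40 (SE 0.28, adjusted p = 0.00395 with every probe set tested), against 0.55 for the brightest. For Col3a1 it gave 0.64 (adjusted p = 0.0262) against 0.34, for Col4a1 0.67 (0.00794) against 0.48, and for Col12a1 0.79 (0.0108) against 0.51. These 4 genes, not called by their brightest probe set, were called by the next one, and the mean over all probe sets of each gene called them too, for 16 collagens higher in all beside 7.98% of all genes. Of 8 called genes with several probe sets, 5 were called by the next brightest one and 3 were not. Those 3 were Col22a1 (1.18, adjusted p = 0.0570), Col19a1 (0.90, 0.090) and Col5a3 (0.01, 0.956), and Col5a3 was also lost with the mean. Col6a4, Col9a3 and Col25a1 had probe sets of opposite sign, with -0.78 for the next probe set of Col9a3 against 0.65 for the brightest.

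**Figure D5:**
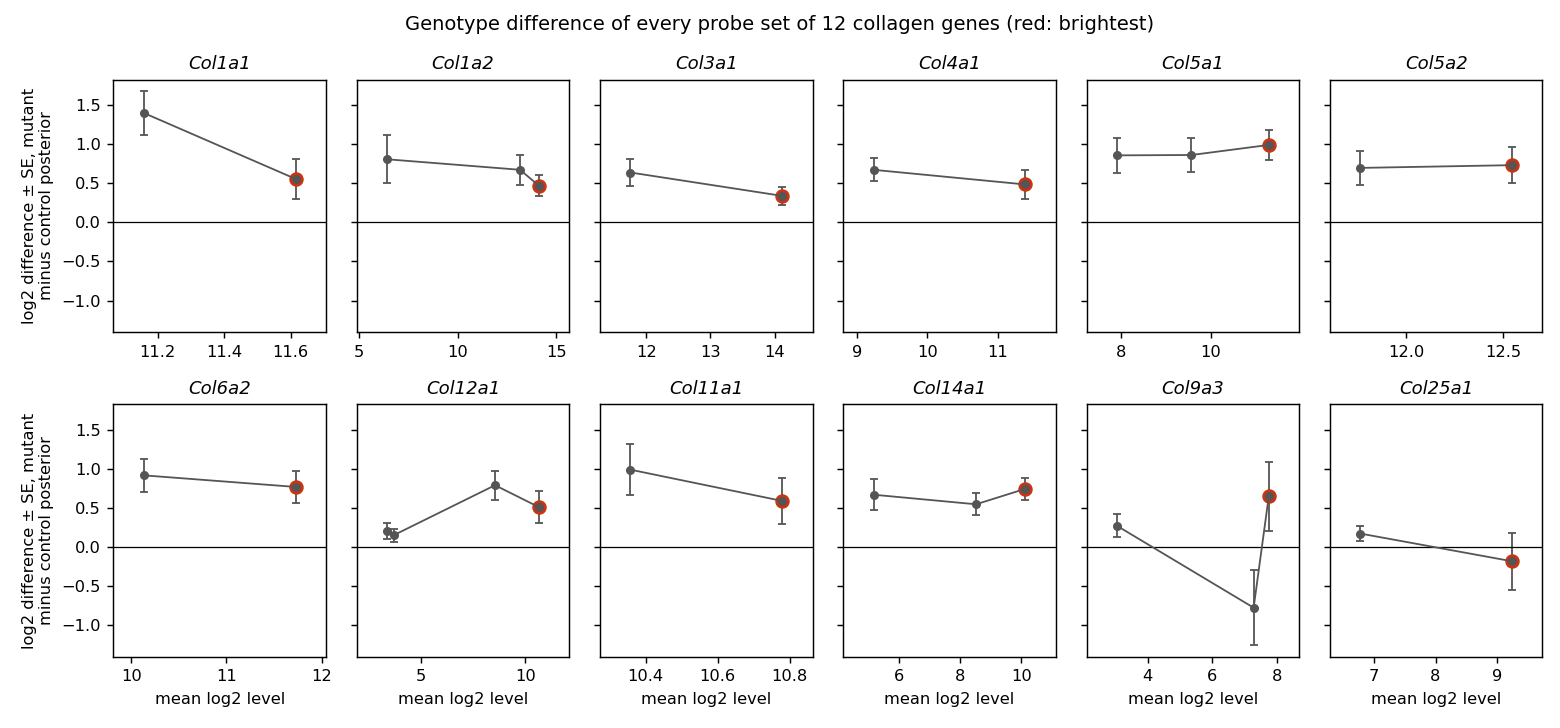
Log2 difference ± SE between mutant and control posterior palate (vertical) of every probe set of 12 collagen genes, against the probe set's mean log2 level over 18 arrays (horizontal), with the brightest ringed in red and lines joining probe sets of a gene. Col1a1, Col3a1 and Col4a1 show a larger difference at the dimmer probe set, and Col9a3 and Col25a1 cross 0.

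Markers of the other cell types in the tissue were set beside the collagen values. In bulk tissue, fewer cells of a type and less RNA per cell cannot be told apart. None of 7 mesenchyme markers and none of 6 endothelial markers was called between genotypes. Their list means were 9.50 to 9.81 and 7.74 to 8.22 in control posterior and 9.31 to 10.36 and 7.34 to 8.54 in mutant palate. Nearest to a call were Vim of mesenchyme (0.41, adjusted p = 0.0532, limma) and Kdr of endothelium (0.45, 0.0765). The mesenchyme markers Pdgfrb, Twist1 and Osr2 had negative differences. Of 7 muscle markers none was called, with list means of 9.75 to 10.76 and 9.60 to 12.13 and all 7 differences positive. Nearest to a call was Des (1.12, adjusted p = 0.0643, limma), and Ttn differed by 1.36 (0.118). Bone markers gave 2 calls of 5 (the osteocyte genes Dmp1 at 2.54 and Phex at 2.24), with list means of 8.90 to 9.62 in controls and 9.60 to 11.35 in mutants. All 5 bone differences were positive, the lowest being Ibsp at 0.04. Tendon markers gave 3 higher calls of 6 (Tnmd, Thbs4 and Fmod), with 7.79 to 8.12 and 8.07 to 8.89. Cartilage gave 1 of 7 (Comp), with 6.35 to 7.08 and 6.89 to 9.71 and all 7 differences positive. Of the cartilage collagens left out by the rule, Col10a1 rose by 2.77 (adjusted p = 0.0168) and Col11a2 by 1.23 (0.0324), both without overlap, while Col2a1 and Col9a1 differed by 1.46 and 1.09 without a call. Schwann cells gave 1 of 3 (Sox10, 0.56), with 7.80 to 8.14 and 7.48 to 9.84, and macrophages 1 higher and 1 lower of 6, with 8.33 to 8.77 and 8.30 to 9.14. Of 9 epithelial markers none was called, with 11.22 to 11.71 and 9.31 to 11.91. Nearest to a call was Cdh1 (-1.07, adjusted p = 0.0871, limma). All the others were negative too except Krt5 (0.55, 0.164), with Krt15 at -0.00095. The part of bone, tendon, cartilage, muscle and epithelial cells in the collagen differences was not tested.

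The machinery that makes, cross-links and binds collagen was followed through 59 measured genes of 64 listed. Between genotypes 16 rose and 1 fell, beside 7.73% and 5.73% of all genes, and the median difference was 0.33. Of 21 genes for chain modification, folding and export, 6 rose. Among these, Creb3l1, a transcription factor that drives collagen secretion genes, read 7.42, 7.83 and 8.07 in control and 8.07, 8.33 and 9.48 in mutant posterior palate (difference 0.74, adjusted p = 0.0257). The prolyl 3-hydroxylase P3h2 rose by 0.72 (adjusted p = 0.0210) and the lysyl hydroxylase Plod1 by 0.68 (0.00594). Plod1 was at 8.34 to 8.76 in controls and 8.93 to 9.61 in mutants, with no overlap. The galactosyltransferase Colgalt2 rose by 0.44 (0.0411). Of 10 genes for propeptide removal and cross-linking, 1 rose, the lysyl oxidase Loxl4, from 5.38, 5.75 and 6.04 to 5.72, 7.05 and 8.13 (1.43, adjusted p = 0.00404).

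Proteins that bind fibrils gave 6 higher calls of 17. Dermatopontin, Dpt, which promotes fibril assembly, read 8.22, 8.94 and 9.44 in control and 9.36, 10.56 and 12.28 in mutant posterior palate, and rose by 1.78 (SE 0.34, adjusted p = 0.00266). The leucine-rich proteoglycans Prelp (1.16, adjusted p = 0.00761), Dcn (0.88, 0.00408) and Fmod (0.69, 0.00198) also rose. Decorin, the product of Dcn, binds type I fibrils together with Col14a1, and its arrays did not overlap, at 11.05 to 11.72 and 11.86 to 13.02. Of 11 receptors and uptake genes, 3 rose and 1 fell. The integrin chain Itga10 rose by 0.95 (adjusted p = 0.0324), the type VI collagen binding proteoglycan Cspg4 by 0.88 (0.00104) and the collagen uptake receptor Mrc2 by 0.64 (0.0101). Ddr1, a collagen receptor kinase of epithelium, fell by 0.53 (0.0338), from 11.76 to 12.11 in controls to 10.61 to 11.80 in mutants. These groups overlapped, and the lowest Ddr1 value was that of mutant array 1, which also had the lowest epithelial marker mean (9.31). The part of epithelium in this value was not tested. With control arrays 1 to 3 only, none of the 59 was called, and with arrays 4 to 6 only, 9 were, beside 0.742% and 5.54% of all genes.

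Along the palate, in controls, 1 collagen was called higher in posterior than in anterior tissue and 3 were called lower, beside 1.70% and 2.12% of all genes, or 3.82% in either direction (limma, adjusted over 18193 genes). With arrays centred on their 75th percentiles the split over all genes was 4.29% and 1.06%, and 3 collagens were higher and 2 lower. The median over the 37 was 0.17, beside -0.02 over all genes, and 22 were positive, beside 45.9% of all genes. Replicate numbers were taken to pair anterior with posterior samples, because same-numbered samples deviated together. The labels do not say what a number marks, and 3 of 6 samples correlated best with their own number. Arrays 1 to 3 and 4 to 6 differed in both control groups, so this check cannot tell pairs from array sets. With the number as a block 9 were higher and 6 lower, beside 6.00% and 11.3% of all genes. That fit held the control arrays only. Unadjusted p was under 0.05 for 11 collagens without the block, beside 19.8% of all genes. The genotype comparison and the regional one share the 6 control posterior arrays, so their values are set side by side and not related to each other.

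Col22a1 was the collagen called higher in posterior palate. It read 5.87, 6.33 and 7.84 in control anterior and 7.97, 8.37 and 8.75 in control posterior tissue, without overlap. The difference was 1.67 (SE 0.39, 3.19-fold, adjusted p = 0.0203, and 0.0111 with the block). It was lost without control anterior arrays 1, 3 or 4 or control posterior array 4 (adjusted p up to 0.0540). In the mutant comparison the same gene rose by 1.59. All 7 skeletal muscle markers rose in posterior palate, by 1.89 to 4.37, and the mean of the list was 5.59 to 8.04 in anterior and 9.75 to 10.76 in posterior controls. The part of muscle in the Col22a1 value was not tested.

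Col19a1 and Col25a1 also separated the regions in every array. Col19a1 read 4.70, 4.77 and 5.02 in anterior and 5.47, 5.66 and 5.96 in posterior controls, a difference of 0.87 (SE 0.24) that just missed the call (adjusted p = 0.0504) and passed with the block (0.000423). Col25a1 read 8.10, 8.83 and 9.10 in anterior and 9.46, 9.58 and 9.73 in posterior controls, a difference of 0.88 (SE 0.37, adjusted p = 0.191, and 0.00631 with the block). With the control arrays alone and no block, both genes were called as well (adjusted p = 2.53e-05 and 0.0025, limma). Both genes are known from muscle, and the part of muscle in these values was not tested either. Col24a1 differed by 1.18 (adjusted p = 0.0866, and 0.0229 with the block), with 4 of 6 posterior arrays above every anterior array. Among bone markers, Ibsp was called higher in posterior palate, 1 of 5, with list means of 7.36 to 9.45 and 8.90 to 9.62.

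Lower in posterior than in anterior palate were Col4a6, Col14a1 and Col18a1. Col4a6, a chain of epithelial and smooth muscle basement membranes, read 6.28, 6.51 and 6.77 in anterior and 5.75, 5.82 and 5.95 in posterior controls, with no overlap. It fell by 0.70 (SE 0.09, 1.63-fold, adjusted p = 0.000156, and 0.0017 with the block), and remained called in all 18 fits that leave out an array. Col14a1 read 9.93, 10.27 and 10.69 in anterior and 9.41, 9.69 and 9.97 in posterior controls, with 5 posterior arrays below every anterior array. Its difference was -0.62 (SE 0.14, adjusted p = 0.0204, and 0.0191 with the block), and it was lost without control anterior arrays 3 or 4 or control posterior array 4. Mutant posterior palate, at 10.11 to 10.95, lay within the range of control anterior palate or above it. Col18a1 read 9.72, 9.75 and 10.01 in anterior and 9.19, 9.44 and 9.53 in posterior controls without overlap, and fell by 0.38 (SE 0.10, adjusted p = 0.0386, and 0.0150 with the block). Its call was lost in 11 of the 18 fits (adjusted p up to 0.106), which left out any control anterior array or any of control posterior arrays 2 to 6. The next brightest probe sets gave -0.35 for Col4a6 (adjusted p = 0.177 with every probe set tested), -0.28 for Col18a1 (0.146) and 1.36 for Col22a1 (0.0821), none of them called, and -0.84 for Col14a1 (0.00289), which was.

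Col7a1 had no overlap either, at 8.0, 8.24 and 8.66 in anterior and 7.55, 7.93 and 7.97 in posterior controls, with a difference of -0.47 (adjusted p = 0.145, and 0.0126 with the block). With Col22a1, Col19a1, Col25a1, Col4a6 and Col18a1, this made 6 collagens of 37 without overlap, beside 6.32% of all genes. Col4a5 differed by -0.53 (adjusted p = 0.131, and 0.0147 with the block), with 5 posterior arrays below every anterior array. Epithelial markers were lower in posterior palate in all 9 cases without a call, with list means of 11.50 to 12.20 and 11.22 to 11.71, and the part of epithelium in the values of Col4a5, Col4a6, Col7a1 and Col18a1 was not tested.

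The fit with the block, which also left out the mutant arrays, added 11 collagens to the 4. Besides Col19a1, Col25a1, Col24a1, Col7a1 and Col4a5 these were Col12a1 (0.63, adjusted p = 0.0105 with the block), Col8a1 (0.73, 0.00915), Col1a1 (0.45, 0.0276), Col6a3 (0.34, 0.0318) and Col26a1 (0.46, 0.0443), all higher in posterior palate, and Col9a3 (-0.91, 0.0393), lower. In the fit of 3 groups without the block, these 6 had adjusted p from 0.0980 to 0.347. With the control arrays alone and no block, Col4a5, Col7a1, Col8a1, Col19a1, Col24a1 and Col25a1 were called in addition to the 4. Leaving out the mutants was thus enough for those calls. In the same fit Col1a1, Col6a3, Col9a3, Col12a1 and Col26a1 were not called (adjusted p = 0.0515 to 0.162, limma). Col1a2, Col3a1, Col4a1, Col4a2, Col5a1 and Col6a1 differed by 0.27, 0.21, -0.17, -0.20, 0.20 and 0.18 between regions. They were called in none of these fits, and their adjusted p in the fit of 3 groups ran from 0.291 to 0.664. Within control arrays 1 to 3 alone no collagen was called for region (0.451% of all genes were), and within arrays 4 to 6 alone Col4a6 was (-0.91, adjusted p = 0.0232, beside 0.0879% of all genes). The 4 called genes kept their sign in both sets, at 1.75 and 1.59 for Col22a1, -0.50 and -0.74 for Col14a1, -0.24 and -0.53 for Col18a1, and -0.50 for Col4a6 in arrays 1 to 3. With the sets as a random block, 4 were higher and 3 lower, beside 2.83% and 4.44% of all genes.

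Between regions, 2 of the 59 genes of collagen handling rose in posterior palate and 1 fell, beside 1.70% and 2.12% of all genes. All of them encode proteins that bind fibrils. Keratocan, Kera, a proteoglycan of cornea and tendon, read 5.89, 6.53 and 7.22 in anterior and 9.08, 9.55 and 10.18 in posterior controls, a difference of 3.03 (SE 0.49, adjusted p = 0.00115). Dpt read 5.94, 6.11 and 6.34 in anterior and 8.22, 8.94 and 9.44 in posterior controls, a difference of 2.70 (SE 0.34, adjusted p = 0.000112). Both genes separated the regions in every array. Fmod, fibromodulin, read 9.70, 9.86 and 10.13 in anterior and 8.70, 8.83 and 9.26 in posterior controls, and fell by 1.00 (SE 0.13, adjusted p = 0.00011). No gene of chain modification, of cross-linking or of the receptors was called for region without the block. With the block, 17 of the 59 were called, where 6.00% of all genes were higher and 11.3% lower. Kera and Fmod are also among the 6 tendon markers, of which 2 were higher and 1 lower in posterior palate.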

How the data were processed

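Whole palate RNA of 18 samples in 3 groups of 6 was measured on Affymetrix arrays. The authors deposited log2 values per probe set, summarised with RMA per the submitters' processing notes, and these were used as deposited. Array medians of the deposited values ran from 5.73 to 5.90, and they were not rescaled in the fit reported. Versions of RMA are not given in the sources used here. The number of arrays limits the precision.

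The platform annotation gave 34945 of 45101 probe sets a single symbol, 932 several and 9160 none, and the other 64 were controls. The probe set with the highest mean over all arrays stood for each of 18193 genes, of which 18032 matched RefSeq by Entrez identifier. A linear model of the 3 groups (limma 3.58.1, R 4.3.3, empirical Bayes, 15 residual degrees of freedom) gave both comparisons, adjusted by Benjamini-Hochberg over all genes and called at an adjusted p under 0.05. The fit was tested on simulated data. Members and lists were chosen with earlier results of these data known. Statistics are given for collagens called in either comparison and for the main chains of each class, and for up to 4 called genes of each pathway list. Other collagens are given by class.

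Replicate numbers were checked as pairs by the correlation of deviations from group means. Same-numbered anterior and posterior controls correlated at 0.11 to 0.43 in all 6 pairs, with 3 of 6 best with their own number. The labels do not say what a number marks, the numbers were taken as pairs on this basis alone, and blocked values stand beside the regional results. Between genotypes the correlations were -0.22 to 0.16, and the numbers were not taken as pairs. Alternatives covered the probe set, filter, scaling, variance model, samples, threshold, block, array sets and each array left out. Figures were drawn with matplotlib 3.10.9.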

Additional observations from a re-analysis of the deposited data

Results flagged for a closer look

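Within a group of 6 arrays, 8 of 111 groups of collagen values had 1 array far from the others (Dixon's criterion, a gap above 0.625 of the range), where chance gives about 1 in 20 groups. Col5a3, a type V chain, stood out at 8.45 in mutant posterior array 1. Control anterior array 2 stood out as highest for Col27a1 at 8.69, Col4a4 at 4.57, Col9a3 at 9.97 and Col19a1 at 5.02. Col9a3 was also far above the other mutants in mutant posterior array 3, at 10.02. Control posterior arrays stood out as lowest for Col13a1, at 6.43 in array 5, and for Col18a1, at 9.19 in array 6.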

How the results depend on the processing

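No difference called with all arrays changed sign in any fit. Col8a1 and Col25a1, called lower with mutant arrays 1 to 3 only, did. The 13 collagens higher in mutants became 3 with the array sets as a random block, 4 at an adjusted p under 0.01, 0 and 8 with control arrays 1 to 3 or 4 to 6 only, 8 with mutant arrays 1 to 3 only and 5 with a replicate block (8 to 17 leaving out an array). With control arrays 1 to 3 only, 11 had an unadjusted p under 0.05 (limma). Lower calls, 0 in the fit reported, were 1 with array weights, either centring or only genes above the median level, and 3 with mutant arrays 1 to 3 only (0 to 1 leaving out an array). Variance trend and robust variance left both sets of calls as they were. The share of all genes called higher moved with the setting too. It was 7.73% in the fit reported, 1.52% with the random block, 3.53% with control arrays 4 to 6 only and 17.9% with mutant arrays 1 to 3 only.

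For region, 1 higher and 3 lower became 5 and 5 with the 2 groups alone, 8 and 5 with array weights, 6 and 5 with mutant arrays 4 to 6 only, 9 and 6 with the replicate block, 0 and 1 at an adjusted p under 0.01 or with control arrays 4 to 6 only, and 0 and 0 with control arrays 1 to 3 only. Higher calls were 4 with the random block, 3 with mutant arrays 1 to 3 only or centring on 75th percentiles, and 2 with centring on medians. Leaving out an array gave 0 to 2 higher and 1 to 5 lower. Over all genes, 1.70% higher and 2.12% lower became 6.00% and 11.3% with the replicate block. Counts by setting are thus not read as results about collagens alone.

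Of the 59 genes of collagen handling, the 17 called for genotype became 4 (random block), 7 (adjusted p under 0.01), 26 (array weights), 11 (at least 1.5-fold), 0 and 9 (control arrays 1 to 3 and 4 to 6), 30 (mutant arrays 4 to 6) and 7 (replicate block), and 8 to 25 leaving out an array. The 3 called for region became 10 (2 groups alone), 7 (random block), 14 (array weights), 6 (75th percentiles), 0 (either control set), 11 (mutant arrays 4 to 6) and 17 (replicate block), and 3 to 5 leaving out an array. For these genes as well, the share of all genes called changed with the setting.

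Uncalled genotype differences that changed sign did so as follows. Col4a3 was at -0.011 with mutant arrays 4 to 6 only. Col4a6 was at -0.051 with centring on 75th percentiles or control arrays 1 to 3, -0.053 with centring on medians and -0.050 with mutant arrays 4 to 6. Col8a1 was at 0.21 with array weights and 0.55 with mutant arrays 4 to 6. Col8a2 was at -0.22 with control arrays 1 to 3 and -0.19 with mutant arrays 1 to 3, and Col9a2 at -0.27 and -0.24. Col6a4 was at -0.036 with array weights, -0.032 and -0.033 with centring on 75th percentiles and on medians, -0.12 with control arrays 1 to 3, -0.012 with the mean of probe sets and -0.085 with mutant arrays 4 to 6. Col6a5 was at 0.019 with control arrays 4 to 6 and 0.036 with mutant arrays 1 to 3. Col23a1 was at 0.40 with array weights, 0.24 with control arrays 4 to 6 and 0.68 with mutant arrays 4 to 6, Col26a1 at 0.039, 0.018 and 0.11, and Col25a1 at 0.37 with array weights and 0.73 with mutant arrays 4 to 6. For region, Col27a1 was at 0.0037 with 75th percentiles and 0.038 with control arrays 4 to 6, and Col6a5 at 0.019 with array weights, 0.081 with 75th percentiles and 0.058 with control arrays 1 to 3.

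Leaving out an array, genotype differences ranged from -0.039 to 0.051 for Col4a6, -0.65 to 0.048 for Col8a1, -0.019 to 0.20 for Col8a2, -0.045 to 0.10 for Col6a4, -0.21 to 0.078 for Col7a1, -0.041 to 0.36 for Col9a2, -0.37 to 0.17 for Col23a1, -0.52 to 0.070 for Col25a1 and -0.18 to 0.013 for Col26a1. Regional ones ranged from -0.17 to 0.10 for Col27a1, -0.043 to 0.26 for Col8a2 and -0.038 to 0.024 for Col6a5. The cause of these changes was not tested. Numbers do not pair mutants with controls, and 1 of 6 mutants correlated best with the control of its own number.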
